A study of Homo sapiens with 6 samples.

Results

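The 7 genes described here encode growth arrest proteins of the BTG and TOB family (BTG1, BTG2, BTG3, TOB1 and TOB2) and of the GADD45 family (GADD45A and GADD45B). They were chosen by symbol and make up 7 of the 57905 genes counted, and all 7 were among the 16565 genes with enough reads to be tested. RNA was sequenced from HCT116, a human colorectal carcinoma line with wild-type p53. Cells received the vehicle DMSO (Nut0h) or Nutlin-3a for 1 h (Nut1h) or 10 h (Nut10h), at 10 µM per the study's methods. The same vehicle group served both times, so effects of the drug and of time in culture cannot be told apart. Nutlin-3a blocks the binding of p53 to MDM2, the ubiquitin ligase that marks p53 for degradation. Each condition had 2 libraries labelled as biological replicates, giving 6 libraries of 1 cell line, and p-values measure only the spread between these libraries.

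BTG and TOB proteins share an N-terminal domain that binds the CNOT7 and CNOT8 deadenylases, and through them they speed the shortening of poly(A) tails. The TOB proteins also bind poly(A)-binding protein, which brings the deadenylase complex to mRNAs. GADD45 proteins are small acidic proteins that bind and activate the kinase MAP3K4 upstream of p38 and JNK, and that also contact PCNA, p21 and the CDK1 and cyclin B1 pair. BTG2 and GADD45A are textbook p53 target genes, whereas GADD45B is best known as a gene induced by NF-kB and TGF-beta signals.

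Assigned reads summed to between 26068076 and 35473485 per library. The treatment check was carried by MDM2, which rose 4.56-fold at Nut1h and 13.4-fold at Nut10h, and by CDKN1A, the gene of the CDK inhibitor p21, which rose 14.3-fold at Nut10h and had a log2 fold change of 0.05 ± 0.10 (SE) at Nut1h. Of 7 markers of intestinal epithelial cells, 6 were expressed in every group and VIL1 was near 0. Their summed normalized count was 171253 to 201133 at Nut0h, 116454 to 126655 at Nut1h and 217733 to 260574 at Nut10h, so it moved with the group, and its part in the results was not tested. At Nut1h 2 were called higher, CDH1 (0.51) and EPCAM (0.46), and 4 lower, led by KRT19 (-0.98) and CLDN4 (-0.73). At Nut10h KRT19 (0.87) and CLDN4 (0.70) were called higher and EPCAM (-0.32) lower. Among 7 measured markers of blood cells, fibroblasts and endothelium, DCN had no read, PTPRC, CD3E and CD68 had 3, 2 and 10 reads over all libraries, and COL1A1, called lower at Nut1h (-0.78), supplied nearly all of a summed normalized count between 795 and 1408. The Nut1h comparison carried a strong trend with GC content: 82.6% of the tested genes with exons below 40% GC were called higher at Nut1h and 1.34% lower, against 0.617% higher and 84.4% lower at 60% GC or more. At Nut10h the same classes had 13.9% higher and 13.8% lower, and 13.9% higher and 19.5% lower. The Nut1h fold changes of the 7 genes are therefore given also from a fit with a GC-content offset, which removes a smooth trend on GC content from each library. In that fit MDM2 had a log2 fold change of 1.52 and CDKN1A of 0.73 at Nut1h (adjusted p = 1.99e-09 and 1.29e-06), and of the markers only CDH1 (0.42) was called. Mitochondrial reads also moved with the group, at 8.15% and 8.44% of counts at Nut1h against 4.99% and 6.18% at Nut0h and 6.45% and 7.06% at Nut10h. The cause of the trend and the part of the mitochondrial share in the results were not tested, beyond a fit without mitochondrial genes.

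In GRCh37 coordinates, BTG1 lies on the minus strand at chr12:92534054-92539622, BTG2 on the plus strand at chr1:203274619-203278730 and BTG3 on the minus strand at chr21:18965971-18985263. TOB1 is on the minus strand at chr17:48939584-48945339 and TOB2 on the minus strand at chr22:41829498-41842805. GADD45A is on the plus strand at chr1:68150884-68154017 and GADD45B on the plus strand at chr19:2476120-2478257. All 7 are protein-coding genes, and reads were counted over their exons. Their exonic GC content ran from 38.6% in BTG1, through 42.2% in TOB1, 43.2% in BTG3, 50.5% in BTG2, 50.7% in GADD45A and 53.4% in TOB2, to 59.6% in GADD45B. Antisense genes share 281 exonic bases with TOB1 and 326 with BTG3. BTG1 overlaps LINC01619 on the same strand and BTG1-DT on the other, and its largest overlap with either is 503 exonic bases. The strand setting of the counting is not given in the sources used here, so reads of these shared stretches cannot be told apart. Strand would in any case not part BTG1 from LINC01619.

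Promoter sequence was available from RefSeq for 6 of the 7 genes, and GADD45A had no entry. The 250 bases before the start site are shown for BTG2, which had the largest rise, for TOB1, which rose at Nut10h, and for GADD45B, which fell at Nut10h. Capitals mark the TATA box TATAAA, the CAAT box CCAAT and the cAMP response core element TGACG on either strand, and coordinates are those of GRCh38.p14. TOB1 had 2 entries, and the one shown was picked after its matches were seen.
BTG2, chr1:203305269-203305518, plus strand: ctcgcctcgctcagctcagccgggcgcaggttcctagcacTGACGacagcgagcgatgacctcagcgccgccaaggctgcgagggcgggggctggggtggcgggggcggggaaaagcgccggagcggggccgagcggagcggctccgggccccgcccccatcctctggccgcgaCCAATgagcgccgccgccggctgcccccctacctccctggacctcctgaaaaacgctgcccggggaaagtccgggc
TOB1, chr17:50866355-50866604, minus strand: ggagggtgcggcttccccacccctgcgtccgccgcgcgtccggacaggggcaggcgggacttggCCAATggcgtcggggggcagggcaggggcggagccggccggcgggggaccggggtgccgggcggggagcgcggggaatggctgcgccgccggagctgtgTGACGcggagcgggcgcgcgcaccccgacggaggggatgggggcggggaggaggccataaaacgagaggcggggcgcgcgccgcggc
GADD45B, chr19:2475877-2476126, plus strand: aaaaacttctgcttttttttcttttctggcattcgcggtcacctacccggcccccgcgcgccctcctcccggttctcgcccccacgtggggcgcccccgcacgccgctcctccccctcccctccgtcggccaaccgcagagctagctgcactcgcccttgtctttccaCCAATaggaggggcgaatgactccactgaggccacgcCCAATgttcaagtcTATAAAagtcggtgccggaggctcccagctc
The GADD45B window held TATAAA from 31 to 26 bases before the start and CCAAT at 2 places, whereas the BTG2 and TOB1 windows held CCAAT and the core element but no TATA box. The BTG1 window also held a TATA box, from 33 to 28 bases before the start, and the core element at 2 places. Of all 35116 RefSeq windows of 250 bases, 10.7% held the TATA box, 32% the CAAT box and 21.2% the core element, which is part of the full cAMP response element TGACGTCA (1.65%). The GC box GGGCGG, not in capitals, occurred in 42.6% of all windows and in those of BTG1, BTG2, BTG3, TOB2 and the TOB1 entry shown. The p53 half-site (5.57% of all windows), the CArG box (1.16%), the AP-1 motif TGANTCA (6.57%) and the full cAMP response element were in none of the windows of the 6 genes, which says only that these letters are not in these 250 bases. GC content was 74.8% in the BTG2 window, 80.4% in the TOB1 window shown and 63.2% in the GADD45B window. A match is a description and not a site.

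Levels per exonic length were compared in TPM, counts scaled by exonic length and by library, computed here from the counts. Exonic length was that of all annotated exons of a gene merged, 2304 bases for BTG3, 1925 for GADD45A and 2521 for TOB1. Their longest transcripts had 1485, 1352 and 2238 bases. The order of the genes given here therefore depends on the length used, and no other length was tried. In vehicle-treated cells TOB1 was highest (93.2 ± 4.17 TPM, SD, n = 2), and its libraries overlapped those of TOB2 (89.0 ± 6.01 TPM). BTG3 followed at 79.4 TPM, GADD45A at 56.4 TPM, GADD45B at 44 TPM and BTG2 at 36.3 TPM, and BTG1 was lowest at 14.0 TPM, with no overlap between neighbours. At Nut1h GADD45A (121 TPM) and BTG3 (117 TPM) had the highest TPM, with overlapping libraries, and BTG2 (79.3 TPM) was close to TOB2 (80.8 TPM) and GADD45B (77.3 TPM). The TPM values are not corrected for the GC trend, so the order at Nut1h is that of the uncorrected libraries. At Nut10h BTG2 had become the highest of the 7 at 251 ± 17.4 TPM, ahead of TOB1 at 204 ± 15.2 TPM and GADD45A at 169 ± 0.639 TPM. TOB2 (93.0 TPM), BTG3 (81.3 TPM), GADD45B (28.4 TPM) and BTG1 (18.7 TPM) lay below, again without overlap. The summed normalized count of the 7 genes was 12316 and 11117 in the Nut0h libraries, 14988 and 15120 at Nut1h, and 22923 and 23511 at Nut10h.

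**Figure D1:**
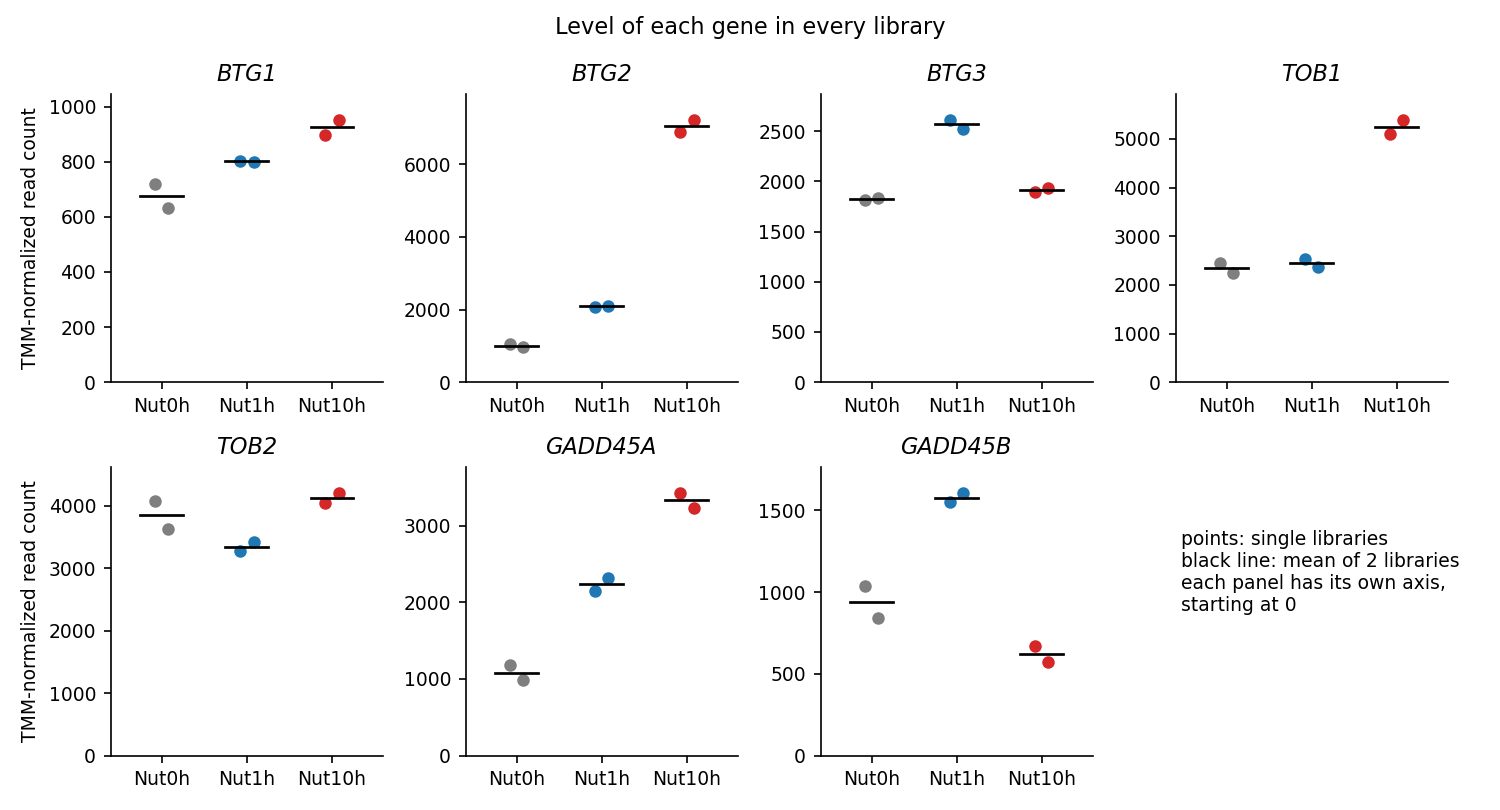
TMM-normalized read count of each gene (vertical axes, each starting at 0) in the 2 libraries of Nut0h, Nut1h and Nut10h, with points for libraries and lines for means. BTG2 climbs from about 998 to 7059, while GADD45B peaks at Nut1h with 1577 and ends at 620.

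After 1 h of Nutlin-3a, 4 of the 7 genes were called higher (57.1%, against 34.5% of all tested genes) and 0 were called lower (against 32.3%); DESeq2 and limma-voom also called 0 lower, and 1 (TOB2) was lower at an unadjusted p under 0.05 in edgeR. TOB2 was called lower with RLE normalization (adjusted p = 0.0457), without mitochondrial genes (0.0469), with a filter of 1 CPM in 2 libraries (0.0485) and with only the 2 groups compared (0.0306). The GC-content offset changed this split to 3 higher (BTG2, GADD45A and GADD45B) and 2 lower (BTG1 at -0.47 and TOB1 at -0.46), where 22.5% of the 16137 genes of that fit were called higher and 23.6% lower. BTG2, GADD45A, GADD45B and BTG3 passed the test, and BTG1, TOB1 and TOB2 did not. The median log2 fold change of the 7 was 0.49, and that of all tested genes was 0.05. That median is the value of BTG3, which was 0.04 with the GC-content offset. With the offset the median of the 7 was 0.12, the value of TOB2, and that of all genes of the fit was 0.00874. After 10 h, 4 of the 7 were called higher (57.1%, against 14.1% of all tested genes), namely BTG2, GADD45A, TOB1 and BTG1. GADD45B was the 1 gene called lower (14.3%, against 14.9%), and BTG3 and TOB2 did not pass. The median log2 fold change was 0.45 for the 7 and 0.00017 for all tested genes. Between 1 h and 10 h, 4 were called higher (BTG2, TOB1, GADD45A and TOB2, 57.1% against 34.2%) and 2 lower (BTG3 and GADD45B, 28.6% against 33.7%). Calls were made at an adjusted p of 0.05 or less in edgeR's quasi-likelihood test. In bulk RNA, a change in the number of cells expressing a gene and a change in RNA per cell cannot be told apart.

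**Figure D2:**
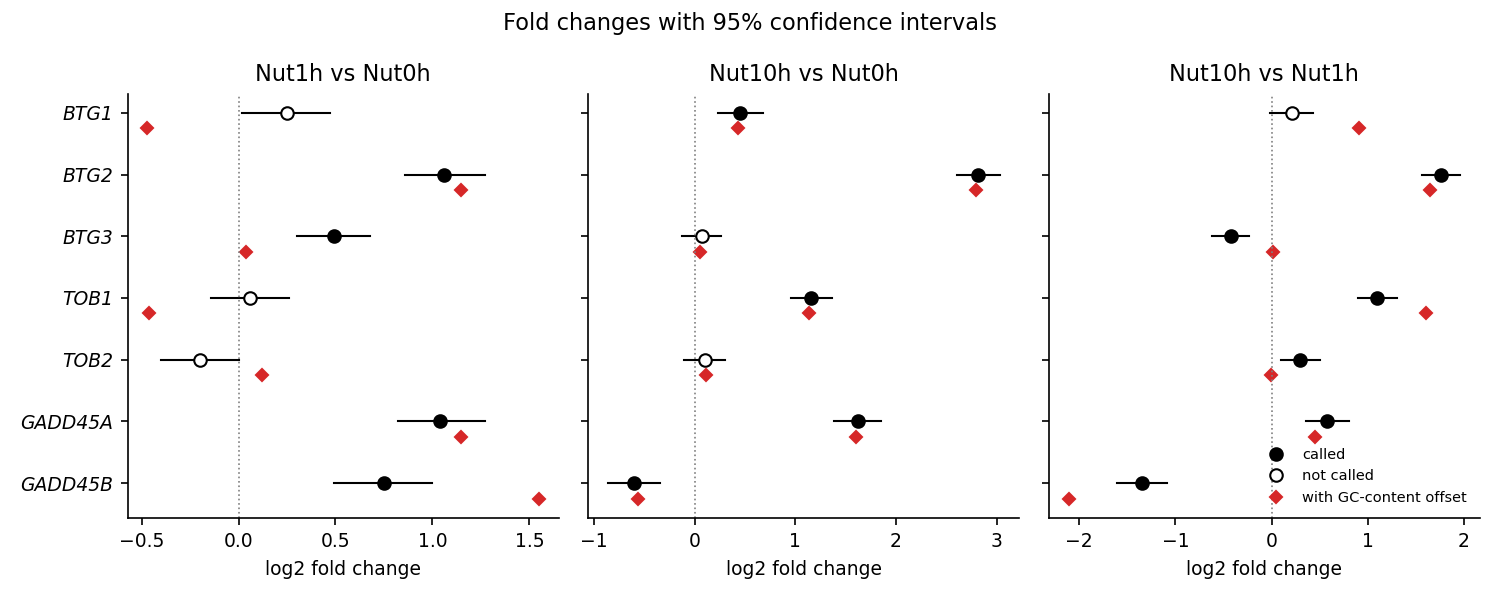
Log2 fold change (horizontal axes) of the 7 genes in the 3 comparisons, with circles and 95% confidence intervals from edgeR and red diamonds from the fit with a GC-content offset. At Nut10h against Nut0h the circles and diamonds nearly coincide, and at Nut1h the diamonds of BTG1 and TOB1 lie at -0.47 and -0.46, left of 0.

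BTG2, a p53 target that links deadenylation to cell cycle arrest, had the largest change of the 7 at Nut10h against vehicle. Its normalized count was 1040 and 955 in the Nut0h libraries, 2074 and 2097 at Nut1h, and 6893 and 7225 at Nut10h. The 3 groups did not overlap, and both Nut10h libraries were far above all others. BTG2 rose 2.09-fold at Nut1h (log2 fold change 1.06, 95% confidence interval 0.86 to 1.27, adjusted p = 5.44e-07) and 7.08-fold at Nut10h (2.82, 2.61 to 3.03, adjusted p = 3.43e-10). The increase at 10 h ranked 80 from the top among the 16565 tested genes. From 1 h to 10 h BTG2 rose a further 3.38-fold (adjusted p = 2.49e-09). The value at Nut1h was 1.15 after the GC-content offset, and over 18 alternatives the value at Nut10h stayed between 2.76 and 2.88.

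TOB1, an antiproliferative protein that brings the CCR4-NOT deadenylase to mRNAs, rose late. Its normalized count was 2445 and 2242 at Nut0h, 2528 and 2358 at Nut1h, and 5107 and 5394 at Nut10h. The Nut0h and Nut1h libraries overlapped, and both Nut10h libraries stood above them. The log2 fold change was 0.06 at Nut1h (95% confidence interval -0.14 to 0.26, adjusted p = 0.584) and 1.16 at Nut10h (0.96 to 1.37, adjusted p = 4.15e-07), a 2.24-fold increase. From 1 h to 10 h TOB1 rose 2.15-fold (adjusted p = 2.01e-07). The value at Nut1h turned to -0.46 with the GC-content offset (adjusted p = 0.000147) and to -0.01 without Nut0h replicate 2, so no direction is given for it. The antisense gene TOB1-AS1 had counts of 11 and 9 at Nut0h, 10 and 8 at Nut1h, and 32 and 49 at Nut10h, and it was chosen after its values were seen. TOB1-AS1 was called higher at Nut10h (log2 fold change 1.99 ± 0.39, adjusted p = 0.00155), while TOB1 itself had counts of 5282 and 5797 there.

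TOB2, the paralogue of TOB1, stayed near its starting level. Its normalized count was 4082 and 3623 at Nut0h, 3273 and 3421 at Nut1h, and 4042 and 4201 at Nut10h. The Nut1h libraries were the lowest, and the Nut0h and Nut10h libraries overlapped. TOB2 had a log2 fold change of 0.10 at Nut10h (95% confidence interval -0.10 to 0.30, adjusted p = 0.476). At Nut1h the value was -0.20 (adjusted p = 0.0706), and it was 0.12 with the GC-content offset. Left without Nut0h replicate 1 it was -0.12, and without Nut0h replicate 2 it was -0.30. From 1 h to 10 h TOB2 rose by 0.30 on the log2 scale (adjusted p = 0.0113), a call that was lost with the GC-content offset (-0.01) and without either Nut1h replicate (0.26 and 0.34, adjusted p = 0.125 and 0.0545).

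BTG1, which is widely expressed in resting cells, had the lowest level per length of the 7. Its normalized count was 721 and 632 at Nut0h, 803 and 800 at Nut1h, and 899 and 953 at Nut10h. The groups did not overlap, with the Nut10h libraries highest. BTG1 rose 1.37-fold at Nut10h (log2 fold change 0.45, 95% confidence interval 0.23 to 0.68, adjusted p = 0.00491). Without Nut0h replicate 2 the value was 0.36 and the adjusted p was 0.0549. At Nut1h the log2 fold change was 0.25 (adjusted p = 0.0531), 0.34 without Nut0h replicate 1 and 0.14 without Nut0h replicate 2. It was 0.28 with upper-quartile normalization (adjusted p = 0.0291), 0.31 with library totals only (adjusted p = 0.0222), and -0.47 with the GC-content offset (adjusted p = 0.000979). The change from 1 h to 10 h was 0.21 (adjusted p = 0.0921), 0.29 without Nut10h replicate 1 (adjusted p = 0.0475), and 0.91 with the offset.

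BTG3, whose product is known to bind the transcription factor E2F1, was highest in both Nut1h libraries. The Nut0h libraries had normalized counts of 1814 and 1834, against 2614 and 2521 at Nut1h, and 1893 and 1933 at Nut10h. BTG3 rose 1.41-fold at Nut1h (log2 fold change 0.49, 95% confidence interval 0.30 to 0.68, adjusted p = 0.000217), close to the median of 0.51 of the tested genes with 40% to 45% GC. Corrected for GC content, its value was 0.04 (adjusted p = 0.64). At Nut10h the value was 0.07 (95% confidence interval -0.12 to 0.26, adjusted p = 0.608). Compared with Nut1h, BTG3 at Nut10h fell by 0.42 in log2 fold change (adjusted p = 0.000719), and with the offset the value was 0.01.

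GADD45A, a p53 target that holds cells before mitosis, rose at both times. Normalized counts of GADD45A were 1176 and 989 at Nut0h, 2146 and 2318 at Nut1h, and 3421 and 3233 at Nut10h. No groups overlapped, and the level was highest at Nut10h. GADD45A rose 2.06-fold at Nut1h (log2 fold change 1.04, 95% confidence interval 0.82 to 1.27, adjusted p = 1.48e-06) and 3.07-fold at Nut10h (1.62, 1.39 to 1.85, adjusted p = 5.15e-08). Its increase from 1 h to 10 h was 1.49-fold (adjusted p = 0.000184). Tested genes with 50% to 55% GC had a median of -0.23 at Nut1h, and the GC-content offset gave 1.15 for GADD45A.

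GADD45B, the paralogue induced by inflammatory signals, rose first and then fell below vehicle. Normalized counts of GADD45B were 1038 and 841 at Nut0h, 1550 and 1605 at Nut1h, and 668 and 572 at Nut10h. The 3 groups did not overlap, with Nut1h highest and Nut10h lowest. GADD45B rose 1.68-fold at Nut1h (log2 fold change 0.75, 95% confidence interval 0.49 to 1.00, adjusted p = 6.8e-05). Tested genes with 55% to 60% GC had a median of -0.65 in the same comparison, and with the offset GADD45B had a log2 fold change of 1.55. At Nut10h GADD45B fell by 0.60 in log2 units (95% confidence interval -0.86 to -0.34, adjusted p = 0.00195). Tested against a minimum log2 fold change of 0.5, this fall was not called (adjusted p = 0.515). From 1 h to 10 h the fall was to 0.393 of the Nut1h level (log2 fold change -1.35, adjusted p = 3.15e-07), and only 1152 of the 16565 tested genes had a log2 fold change as low or lower.

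**Figure D3:**
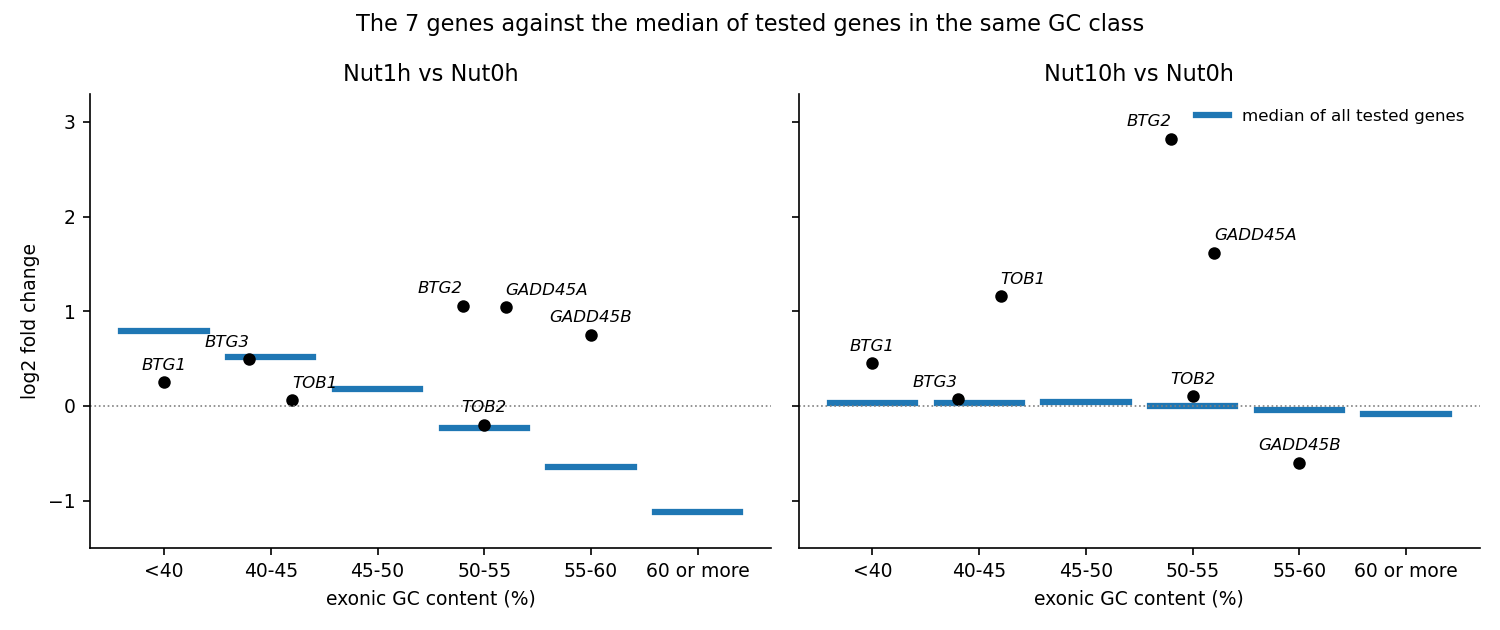
Log2 fold change (vertical axis) against exonic GC class (horizontal axis, %), with blue bars for the median of all tested genes in the class and points for the 7 genes. At Nut1h the bars descend from 0.79 to -1.12, BTG3 and TOB2 sit on them, BTG2, GADD45A and GADD45B above, and BTG1 (0.25) and TOB1 (0.06) below.

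Paralogues of a pair were also compared within each library, where the scaling between libraries cancels but the GC trend does not, since the paralogues differ in GC content. The ratio of GADD45A to GADD45B counts was 1.13 and 1.18 at Nut0h, 1.38 and 1.44 at Nut1h, and 5.12 and 5.65 at Nut10h. GADD45A thus had the higher count in all 6 libraries, by far the most at Nut10h. The ratio of TOB1 to TOB2 counts was 0.599 and 0.619 at Nut0h, 0.772 and 0.689 at Nut1h, and 1.26 and 1.28 at Nut10h. TOB1 passed TOB2 in count only in the Nut10h libraries, whereas per exonic length the mean ratio was already 1.05 at Nut0h and reached 2.20 at Nut10h. The ratio of BTG1 to BTG2 counts was 0.693 and 0.662 at Nut0h, 0.387 and 0.382 at Nut1h, and 0.130 and 0.132 at Nut10h. BTG2 exceeded BTG1 in every library, and the groups of no pair overlapped. With the GC-content offset the Nut1h fold change of GADD45A (1.15) was below that of GADD45B (1.55) and that of TOB1 (-0.46) below that of TOB2 (0.12), opposite to the higher Nut1h ratios of both pairs. These ratios are descriptions and were not tested.

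**Figure D4:**
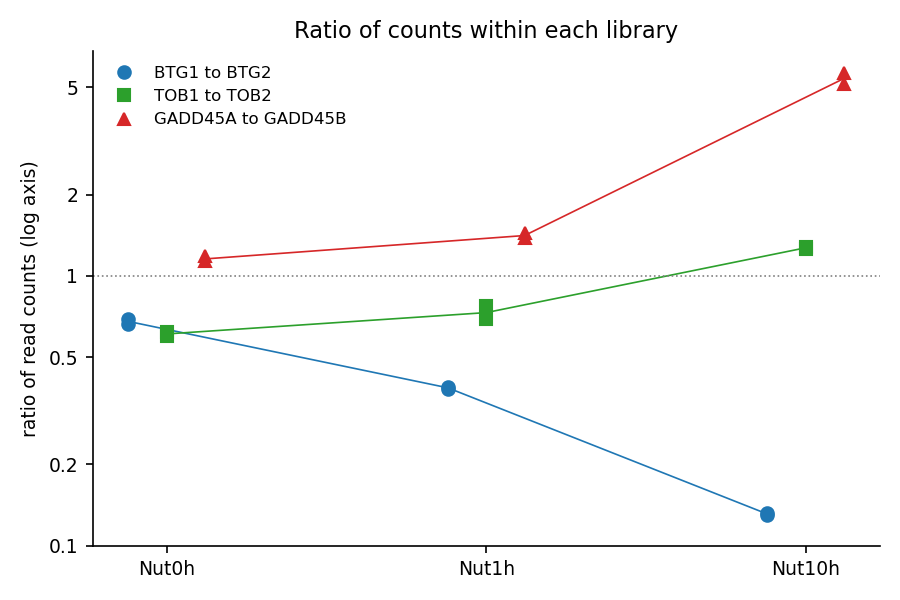
Ratio of read counts within each library (vertical log axis) for the 3 pairs at Nut0h, Nut1h and Nut10h, with symbols for libraries and lines through the means. GADD45A to GADD45B reaches 5.12 and 5.65 at Nut10h, and BTG1 to BTG2 descends to 0.130 and 0.132.

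The remaining family members were low or absent. BTG4, known from oocytes, had 0 reads in all 6 libraries, which allows up to 3 counts per library for counting error. GADD45G had 9 and 21 reads at Nut0h, 5 and 8 at Nut1h, and 23 and 20 at Nut10h, and did not pass in either comparison with vehicle (adjusted p = 0.147 and 0.433). Between the treated times GADD45G was called higher (log2 fold change 1.47 ± 0.53, adjusted p = 0.0239), at these low counts. With the GC-content offset GADD45G was at 0.19 at Nut1h, in place of -0.95, and at 0.57 at Nut10h. PPP1R15A, a phosphatase subunit of the stress response that was first named as a GADD gene, had log2 fold changes of 0.09 at Nut1h and 0.09 at Nut10h (adjusted p = 0.519 and 0.631), and 0.75 at Nut1h with the GC-content offset (adjusted p = 2.33e-06). DDIT3, which encodes the stress factor CHOP, fell by 0.36 in log2 units at Nut1h (adjusted p = 0.0156, -0.34 with the offset) and had -0.21 at Nut10h (adjusted p = 0.202).

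The proteins that BTG and TOB act through were described as a list of 15 genes of the CCR4-NOT and PAN2-PAN3 deadenylases and their partners. At Nut1h 7 were called higher and 5 lower, and with the GC-content offset 2 and 5. CNOT6 (1.14) and CNOT7 (0.87) had the largest rises and CNOT3 (-0.70) and PRMT1 (-0.57) the largest falls in log2 fold change, and of these only CNOT6 kept a call with the offset (0.45), where PAN2 was the other gene called higher (0.31). The 5 called lower with the offset were PABPC1 (-1.01) and PABPC4 (-0.81), which encode poly(A)-binding proteins, CNOT2 (-0.58, in place of 0.35), CNOT1 (-0.25) and CNOT11 (-0.24). At Nut10h 1 was called higher and 3 lower, with CNOT6 at 0.45, CNOT9 at -0.58 and CNOT3 at -0.45. With the offset 3 were called higher and 6 lower, in a fit that also called more of all genes at Nut10h (6408, against 4810). The median of the list at Nut10h was -0.0056. CNOT7 and CNOT8, the deadenylases bound by the BTG domain, had log2 fold changes of -0.19 and 0.02 at Nut10h (adjusted p = 0.198 and 0.886; with the offset CNOT7 was called lower at -0.21, adjusted p = 0.0151), while BTG2 and TOB1 rose in those libraries.

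Of 14 tested GADD45 partners, 8 were called higher and 4 lower at Nut1h, and 3 and 2 with the GC-content offset. TDG, a DNA glycosylase (0.90), and CDK1 (0.77) had the largest rises, and GADD45GIP1 (-1.32) and the JNK kinase MAP2K7 (-1.22) the largest falls. With the offset TDG was at 0.20, CDK1 at -0.02, GADD45GIP1 at -0.47 and MAP2K7 at -0.15 (not called). The other gene called lower was MAPK9 (-0.36), while MAP2K3 (from -0.56 to 0.22) and MAPK11 (from -0.67 to 0.39) turned from called lower to called higher. At Nut10h 2 were called higher, MAP2K4 and MAPK11 at 0.35 each, and 5 lower, led by CCNB1 (-1.64) and CDK1 (-0.76), the cyclin and kinase that GADD45A is known to part. MAP3K4, the kinase that GADD45 proteins activate, fell by 0.39 in log2 units at Nut10h (adjusted p = 0.00768).

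Cell cycle genes mostly moved opposite to BTG2, TOB1 and GADD45A at Nut10h. Of 12, 11 were called lower and 1 higher, with a median log2 fold change of -1.43 and the largest falls in CCNE2 (-2.55) and E2F1 (-2.44). CCND1, the cyclin D1 gene, was the one that rose (0.45). CCNB1 and CDK1 are in this list and also in that of the GADD45 partners. At Nut1h 4 were called higher and 1 lower, with CCNE2 at 1.2, CDK1 at 0.77 and E2F1 at -1.13. With the GC-content offset 2 were called higher at Nut1h, CCNE2 (0.40) and CDC25A (0.68), and 2 lower, CCNA2 (-0.39) and CCNB2 (-0.46), while E2F1 (-0.17) and CDK1 (-0.02) lost their calls.

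Other p53-induced arrest and feedback genes are given for the size of the members' rises. All 13 tested were called higher at Nut10h (median log2 fold change 1.99), with CDKN1A at 3.84 and MDM2 at 3.75 on top. BTG2 at 2.82 lay above that median, and GADD45A at 1.62, TOB1 at 1.16 and BTG1 at 0.45 below it. At Nut1h 7 of the 13 were called higher, led by MDM2 (2.19) and PLK2 (1.39), and 4 lower, led by GDF15 (-1.35) and PHLDA3 (-1.0). With the offset 7 were again called higher, but not the same genes: PPM1D, CCNG1, SESN1 and ZMAT3 lost their calls, CDKN1A (0.73) and PLK3 (0.89) gained one, and SFN and SESN2 turned from called lower to called higher (0.21 each). GDF15 (-0.17) and PHLDA3 (-0.24) no longer passed. BTG2 (1.06) and GADD45A (1.04) at Nut1h lay between PLK2 and the list's median of 0.46, whereas with the offset both were at 1.15, above PLK2 (1.12) and the median of 0.21.

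Immediate early genes, which include the factors of AP-1, were compared beside the members, several of which are known to respond to growth and stress signals. Of 17, 5 were called higher and 10 lower at Nut1h, and 11 and 3 with the GC-content offset. ATF3 (1.62) and NR4A1 (0.89) rose most, and FOS (-1.33) and JUNB (-1.03) fell most. With the offset NR4A1 was at 1.71, above ATF3 at 1.41, while FOS was at -1.06 and JUNB turned to 0.23. At Nut10h 3 were called higher, led by ATF3 (1.45) and IER5 (0.58), and 7 lower, led by FOS (-1.18) and EGR1 (-0.90). Among 10 known transcriptional regulators of the members, 4 were called higher and 5 lower at Nut1h, and 3 and 5 with the offset, with BRCA1 at 0.63, EGR1 at 0.42, RELA at -0.87 and SMAD3 at -0.50 without it. With the offset BRCA1 was at 0.15 and not called, EGR1 at 0.90, RELA at -0.25 and SMAD3 at -0.37, and NFKB1 had the lowest value of the list (-0.99). At Nut10h 2 were called lower, BRCA1 (-1.64) and EGR1 (-0.90), and the others did not pass. EGR1 is also counted among the immediate early genes. RELA, the NF-kB subunit known to act on GADD45B, had -0.09 at Nut10h (adjusted p = 0.558).

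**Figure D5:**
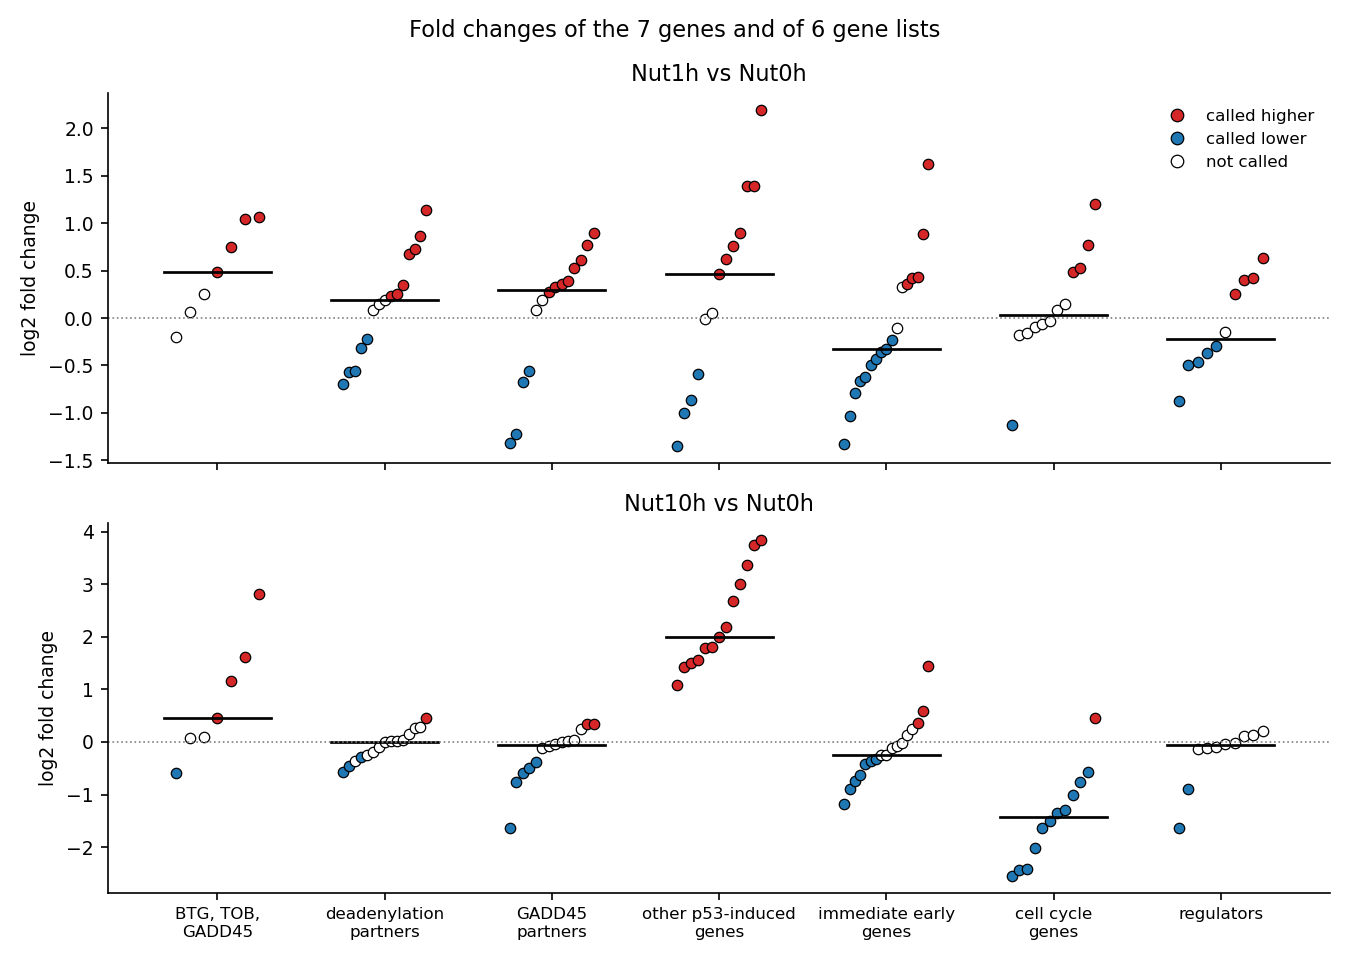
Log2 fold change (vertical axes) of each tested gene in the 7 members and in 6 gene lists, at Nut1h (top) and Nut10h (bottom), with black lines for medians and colours for calls. At Nut10h all 13 other p53-induced genes lie above 0 and 11 of 12 cell cycle genes below.

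For each member the genes with the most similar pattern were sought among 11577 tested genes with a mean normalized count of at least 100, by the Euclidean distance of centred log2(CPM + 1) values over the 6 libraries. Genes near BTG2 were FAS (distance 0.330) and BTBD19 (0.389), which had log2 fold changes at Nut10h of 2.57 and 2.88. TOB1 was nearest to STAT3 (0.0852), PGPEP1 (0.168) and PRKX (0.179), all with log2 fold changes near 0 at Nut1h (0.01 to 0.04) and between 1.14 and 1.24 at Nut10h. GADD45A was nearest to ZNF600 (0.344), C12orf5 (0.350) and LACC1 (0.368). GADD45B was nearest to SNRPG (0.217), NCL (0.263) and HTATSF1 (0.265), which were also highest at Nut1h and lowest at Nut10h. The nearest genes were PEX26, LYRM1 and ZBTB49 for BTG1 (0.0821 to 0.113), GTF2A2, MTHFD2 and NOM1 for BTG3 (0.0523 to 0.0598), and VDR, RRP8 and CAST for TOB2 (0.0694 to 0.0841). BTG2, GADD45A and GADD45B had less close neighbours than the other 4 members. The distance was not scaled by the size of a gene's changes, so it also depends on that size. Among the 7 themselves, BTG2 and GADD45B were farthest apart (3.72), and GADD45A lay at 2.35 from its paralogue GADD45B. All these distances are from values not corrected for the GC trend of the Nut1h libraries.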

How the data were processed

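RNA-seq of 6 HCT116 libraries was analysed. The authors trimmed reads with Trim Galore 0.6.6, aligned them to GRCh37.p13 with STAR 2.7.0f and counted them per gene with featureCounts of Subread 2.0.0, and the deposited values are raw counts. A further deposited table of the authors' own comparisons holds fold changes and p-values, and only its gene symbols were used. Genes were filtered with filterByExpr, normalized by TMM and tested with edgeR 4.0.16 (quasi-likelihood test, condition as the only term, all 6 libraries, Benjamini-Hochberg adjustment, R 4.3.3), after the test was tried on simulated data. Normalized counts are counts scaled by TMM library size. GC content and exon length came from GENCODE lifted to GRCh37 (97.4% of tested genes). The GC-content offset is a loess trend (span 0.4). Alternatives included DESeq2 1.42.0, limma-voom 3.58.1, other scalings, filters and designs, and each library left out. The members and lists were chosen with earlier results of these data known. Named genes were the 7 members, MDM2, CDKN1A, the other family and GADD genes, for each list the 2 largest called rises and falls against Nut0h, and the 3 nearest genes of each member. Other named genes were chosen after their values were seen. The nearest gene of BTG2 is not reported here.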

Additional observations from a re-analysis of the deposited data

Results flagged for a closer look

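For 6 of the 7 genes the response at 10 h differed from that at 1 h in the direct comparison of Nut10h with Nut1h (edgeR's quasi-likelihood test, both responses sharing the same vehicle libraries), in which 67.9% of all tested genes were called. The difference in log2 fold change was 1.76 for BTG2, 1.1 for TOB1, 0.58 for GADD45A and 0.30 for TOB2, and -0.42 for BTG3 and -1.35 for GADD45B. GADD45B was called in opposite directions against vehicle at the 2 times, and so were BTG1 (-0.47 and 0.43) and TOB1 (-0.46 and 1.14) once the GC-content offset was used. With the GC-content offset BTG2, TOB1, GADD45A and GADD45B remained called from 1 h to 10 h, TOB2 and BTG3 did not, and BTG1 became called (0.91, adjusted p = 8.72e-07). Groups of 2 libraries are too small for a check of single libraries that stand apart.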

How the results depend on the processing

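Calls of BTG2 and TOB1 at Nut10h, and of GADD45A and GADD45B at Nut1h, held under all 18 alternatives run for each, as did those of BTG2 at Nut1h and GADD45A at Nut10h. The GC-content offset, alone or with the replicate block, turned the direction at Nut1h of BTG1 (-0.47), TOB1 (-0.46) and TOB2 (0.12), and from 1 h to 10 h of BTG3 (0.01) and TOB2 (-0.01). It left 7437 genes called at Nut1h, against 11077, and 7283 with the block. At Nut10h against Nut0h the offset raised the genes called from 4810 to 6408. TOB1 at Nut1h was -0.01 without Nut0h replicate 2. The causes were not tested. With a minimum log2 fold change of 0.5, members called were 3 at Nut10h against Nut0h and 3 from 1 h to 10 h, and genes called were 6248, 1249 and 6772 in the comparisons of Nut1h and Nut10h with Nut0h and of Nut10h with Nut1h. Replicate numbers did not pair the 3 groups alike. The correlation of deviations was 0.446 for Nut0h with Nut10h, but -0.309 for Nut0h with Nut1h and -0.279 for Nut1h with Nut10h. The replicate block changed no call of a member, with 10979, 4893 and 11189 genes called. Crossing the Nut1h numbers, chosen after seeing the data, gave 12131, 7631 and 12373 genes and 6, 5 and 7 members called. The crossed block added calls at Nut1h of BTG1 (0.25, adjusted p = 0.00634) and TOB2 (-0.20, adjusted p = 0.00269). From 1 h to 10 h it added BTG1 (0.21, adjusted p = 0.0186). DESeq2 and limma-voom kept every call of a member. With 2 libraries per group, changes the size of those of BTG1 and TOB2 are at the limit of what was called.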
